A study of Mus musculus with 7 samples.

Results

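The genes described here are 10 heat shock chaperone genes, taken by name from a list: Hspa1a, Hspa1b, Hsph1, Hsp90aa1, Hsp90ab1, Dnaja1, Dnajb1, Hspa8, Hspb1 and Hspa5. They are 10 of the 19614 genes that the deposited count tables list, and the rule that picks them uses no measured value. Their levels were measured by single-cell RNA sequencing in 2 areas of the mouse cerebral cortex, the prefrontal cortex (PFC; its ventromedial part) and the motor cortex (MC). Mice were of strain B6129SF1/J, 30 days old and kept with 12 h of light a day, followed by 12 h of dark. The control genotype (CTRL) was Opn4-Cre/+; Brn3b-+/+, in which the intrinsically photosensitive retinal ganglion cells are intact. The second genotype (DTA) was Opn4-Cre/+; Brn3b-zDTA/+, in which these melanopsin-expressing cells of the retina are ablated by diphtheria toxin subunit A, which the Brn3b locus makes once Cre has acted, so that the ablation reaches those that express both genes. Both genotypes carried Opn4-Cre, so the groups differed by the Brn3b allele. There were 2 PFC CTRL, 3 PFC DTA, 1 MC CTRL and 1 MC DTA libraries. The retina was not sampled, so these libraries hold no check of the ablation. The labels do not give animal identities, and p-values measure the spread between these samples, which may be technical.

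Heat shock proteins are chaperones, which hold unfolded proteins and help them to fold. The HSP70 proteins bind and release short exposed stretches of a client protein with the help of J-domain partners and of nucleotide exchange factors, and HSP90 proteins act on later folding steps of kinases and receptors. Inducible members are transcribed by heat shock factor 1 when unfolded protein accumulates, and constitutive members are made in resting cells, with neurons long known for a weak inducible response. Here 6 genes were taken as inducible: Hspa1a and Hspa1b, which encode the stress HSP70, Dnajb1, an HSP40 J-domain partner, Hsph1, an HSP110 exchange factor, Hspb1, the small heat shock protein HSP27, and Hsp90aa1, the inducible cytosolic HSP90. The 3 constitutive genes were Hspa8, the resting HSP70 known as HSC70, Hsp90ab1, the constitutive cytosolic HSP90, and Dnaja1, a J-domain partner. Hspa5, which encodes the HSP70 of the endoplasmic reticulum (BiP), was kept apart because it belongs to the unfolded protein response. In the GENCODE annotation of GRCm38 the genes lie on 7 chromosomes, with Hspa1a (chr17:34969190-34972156), Hspa1b (chr17:34956436-34959238) and Hsp90ab1 (chr17:45567775-45573271) on the same one. Hspb1 (chr5:135887919-135889563) and Hsph1 (chr5:149614287-149636376) share another, and the rest are Hspa5 (chr2:34771970-34777547), Dnaja1 (chr4:40722150-40737149), Dnajb1 (chr8:83608193-83612653), Hspa8 (chr9:40800984-40810087) and Hsp90aa1 (chr12:110690605-110702728).

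Heat shock factors can bind pairs of inverted GAA repeats, and promoters are shown for the members with the sharpest cell-type pattern below. The windows are the 250 bases before a gene's start, from RefSeq on the build GRCm38.p6, and 7 of the 10 genes were matched in it; Hspa8, Hsp90aa1 and Hsp90ab1 were not. The first is from Hspa1a (chr17:34972157-34972406, minus strand), the second from its neighbour Hspa1b (chr17:34959239-34959488, minus strand) and the third from Hspb1 (chr5:135887669-135887918, plus strand). Capitals mark the pair GAANNTTC.
Hspa1a: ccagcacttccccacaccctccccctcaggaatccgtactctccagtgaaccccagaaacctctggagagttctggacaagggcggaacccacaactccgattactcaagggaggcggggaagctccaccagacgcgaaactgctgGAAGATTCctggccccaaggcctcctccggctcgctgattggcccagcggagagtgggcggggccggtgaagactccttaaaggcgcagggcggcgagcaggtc
Hspa1b: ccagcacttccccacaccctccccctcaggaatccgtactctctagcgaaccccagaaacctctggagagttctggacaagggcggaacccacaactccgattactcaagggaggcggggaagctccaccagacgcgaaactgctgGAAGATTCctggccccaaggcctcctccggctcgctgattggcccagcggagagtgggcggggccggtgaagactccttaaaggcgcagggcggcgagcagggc
Hspb1: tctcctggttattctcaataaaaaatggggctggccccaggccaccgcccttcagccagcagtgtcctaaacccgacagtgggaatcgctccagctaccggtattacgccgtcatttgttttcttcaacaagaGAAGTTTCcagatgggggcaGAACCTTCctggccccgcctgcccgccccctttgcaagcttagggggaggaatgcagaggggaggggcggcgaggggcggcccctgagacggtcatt
The Hspa1a and Hspa1b windows differed at 3 of 250 positions and held the pair 104 bases before the start. Hspb1 held it at 117 and 97 bases before the start. Hsph1 held the other arrangement, TTCNNGAA, and Hspa5 held the endoplasmic reticulum stress element, CCAAT and CCACG with 9 bases between them, 65 bases before its start. Capitals mark these motifs. Each is shown in 30 bases, Hsph1 from chr5:149636351-149636380 (minus strand) and Hspa5 from chr2:34772020-34772049 (plus strand).
Hsph1: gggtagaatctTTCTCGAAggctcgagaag
Hspa5: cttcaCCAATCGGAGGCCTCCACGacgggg
On either strand, GAANNTTC was present in 6.694% and TTCNNGAA in 7.166% of all 32851 windows of this length, and 5 of the 7 matched genes held a pair in at least 1 of their 11 windows. Dnaja1 held GAANNTTC 124 bases before its start, and Dnajb1 held neither arrangement. The triple, in which a further GAA follows GAANNTTC after 2 bases and which so overlaps both pairs, was in 0.466% of all windows and in none of the members', and the stress element was in 0.113%. A match describes these letters and is not a measured binding site.

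The 7 libraries held 32985 cells, 1936 to 9879 in each, with 6180059 to 30972905 unique molecular identifiers (UMIs, 1 per captured transcript). After 1064 doublet calls were removed, 27520 of the remaining 31921 cells fell into 8 classes named from marker genes, so that a class name stands for cells like that type. These were 12962 excitatory neurons, 4198 astrocytes, 2897 inhibitory neurons, 2071 microglia, 1874 oligodendrocytes, 1677 endothelial cells, 1259 oligodendrocyte precursors and 582 newly formed oligodendrocytes, with at least 34 cells of each in every library. All listed markers reached 20 CPM (the UMIs of a gene scaled to a common total for each class and library) in every library in 7 classes, and 7 of 9 did in excitatory neurons. PFC DTA replicate 3 stood apart: a low-count cluster without a name took 31.0% of its cells, against 0.68% to 3.60% in the other 6 libraries. PFC CTRL replicate 1, PFC DTA replicate 2 and MC DTA were sequenced more deeply per cell, with a median of 11446.5, 12304.5 and 15841.5 UMIs per excitatory neuron against 2889.5 to 5416 in the other 4. Each library shared 3.108% to 4.545% of its cell barcodes with other libraries. Levels below are CPM of the UMIs summed over a class in a library. With 3' counting they are not divided by length, and a gene's level is compared between cells and not with that of another gene unless this is said.

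The stress HSP70 genes were highest in cells of the vessel wall and low in astrocytes and oligodendrocyte precursors. Hspa1a in endothelial cells stood at 577 and 209.97 CPM in PFC CTRL, 176, 277 and 293 CPM in PFC DTA, and 116 CPM (CTRL) and 300.01 CPM (DTA) in the MC. The highest value was in PFC CTRL replicate 1 and the lowest in MC CTRL, and the range of PFC CTRL took in PFC DTA replicates 2 and 3. In astrocytes the same gene stood at 12.2 and 6.76 CPM in PFC CTRL, 12.4, 13.3 and 6.91 CPM in PFC DTA, and 8.08 CPM (CTRL) and 10.2 CPM (DTA) in the MC, so the lowest endothelial library was above the highest astrocyte library. Oligodendrocytes gave 96.2 and 81.6 CPM in PFC CTRL, 74.0, 449 and 39.3 CPM in PFC DTA, and 52.0 CPM (CTRL) and 203 CPM (DTA) in the MC, with PFC DTA replicate 2 far above the rest, and microglia gave 71.5 to 249.5 CPM. Over the 7 libraries, the mean was 278 ± 148 CPM in endothelial cells, 142 ± 145 CPM in oligodendrocytes and 125 ± 65.7 CPM in microglia (SD, n = 7). Neurons had less, at 39.7 CPM in excitatory and 52.2 CPM in inhibitory cells on average. Endothelial cells were above 6 of the other 7 classes in all 7 libraries.

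Hspa1b, which lies next to Hspa1a on chromosome 17 and encodes almost the same protein, was much rarer. It stood at 34.9 and 4.31 CPM in PFC CTRL, 7.19, 19.0 and 14.2 CPM in PFC DTA, and 4.88 CPM (CTRL) and 8.23 CPM (DTA) in the MC in endothelial cells, with the highest value again in PFC CTRL replicate 1. Microglia gave 0 to 23.8 CPM, excitatory neurons 0.533 to 4.24 CPM, and oligodendrocyte precursors 0 in all 7 libraries. Of all 50-base words, 58.81% of those in the Hspa1a transcript were also in Hspa1b, but 0% of those in its last 500 bases, where 3' reads fall. Hspa1b was too low to be tested between genotypes in 7 of the 8 classes, and the sources used here do not say how reads shared by the pair were assigned.

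The other cells of the vessel wall were fewer and were not tested, with 556 pericytes, 225 smooth muscle cells and 184 perivascular macrophages in all. Hspa1a in pericytes stood at 2301 and 782 CPM in PFC CTRL, 622, 1296 and 1137 CPM in PFC DTA, and 563 CPM (CTRL) and 1027 CPM (DTA) in the MC. Each pericyte value was above the endothelial value of the same library, and 18 to 154 cells lay behind it. Smooth muscle cells ranged from 64.6 to 1005 CPM. Pericyte markers were present in the endothelial sums: the summed level of 7 pericyte genes was 109 and 293 CPM in PFC CTRL, 137, 175 and 410.4 CPM in PFC DTA, and 215 CPM (CTRL) and 22.9 CPM (DTA) in the MC. The part of pericyte RNA in the endothelial level of Hspa1a was not tested.

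Hspb1 was the member most restricted to one class. In endothelial cells it stood at 1721 and 1079 CPM in PFC CTRL, 1172, 1011 and 981 CPM in PFC DTA, and 881 CPM (CTRL) and 966 CPM (DTA) in the MC. Excitatory neurons gave 0.964 and 1.36 CPM in PFC CTRL, 2.93, 1.80 and 1.05 CPM in PFC DTA, and 0.674 CPM (CTRL) and 1.31 CPM (DTA) in the MC, and class means outside the endothelium lay between 1.44 and 5.65 CPM. The mean in endothelial cells was 1116 ± 282 CPM (SD, n = 7), at least 197 times the mean of any other of the 8 classes, and the endothelial value was the highest in all 7 libraries. Pericytes (519.9 to 1131 CPM) and smooth muscle cells (589.7 to 1676 CPM) also held it. Both MC libraries were below all 5 PFC libraries in the endothelium, with the nearest pair at 966 and 981 CPM.

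Dnajb1, the J-domain partner that starts the HSP70 cycle, was, of the 8 classes, likewise highest in endothelial cells, oligodendrocytes and microglia. In endothelial cells it stood at 193 and 314 CPM in PFC CTRL, 147, 197 and 215 CPM in PFC DTA, and 238 CPM (CTRL) and 263 CPM (DTA) in the MC. Microglia gave 125 to 170.2 CPM, oligodendrocytes 103 to 255 CPM, and astrocytes 18.5 to 44.8 CPM. Microglia were above excitatory neurons in all 7 libraries, while oligodendrocytes and microglia overlapped. Outside these classes, pericytes, with a mean of 271 CPM, and perivascular macrophages, with 241 CPM, stood above the endothelial mean of 224 CPM.

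**Figure D1:**
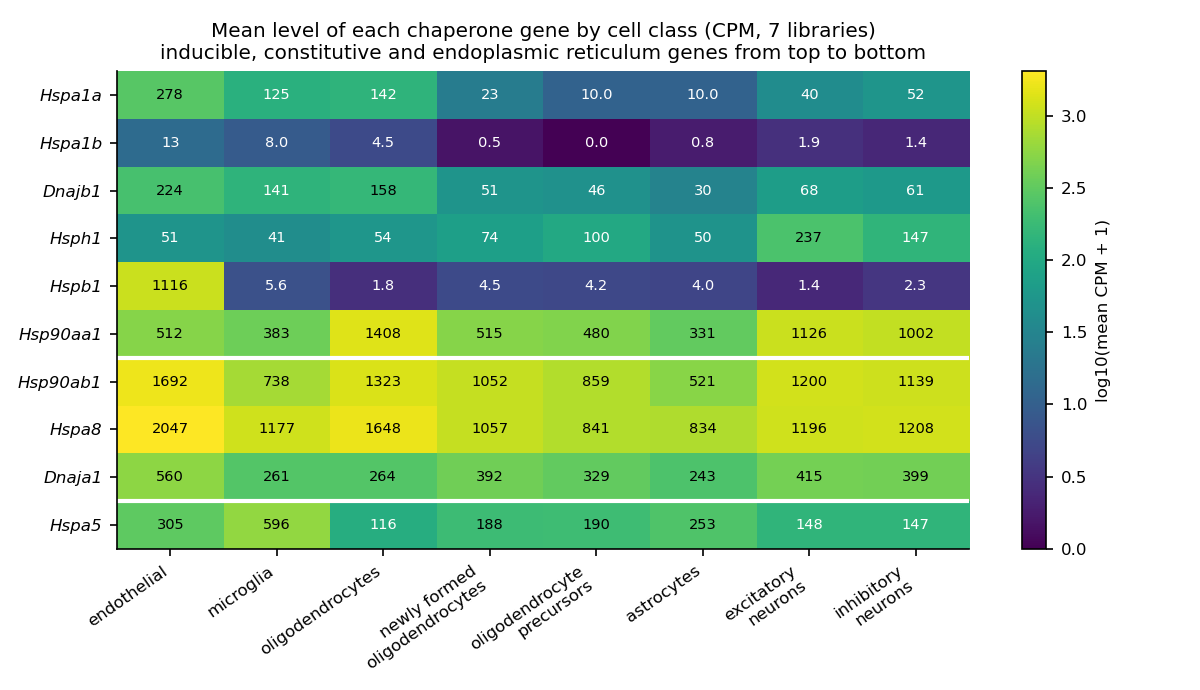
Heat map of the mean level of the 10 genes (rows) in the 8 classes (columns); colour is log10(mean CPM + 1) and the printed number is the mean CPM over 7 libraries. Hspb1 reaches 1116 CPM in endothelial cells and at most 5.65 CPM in the other 7 classes, while Hspa8 and Hsp90ab1 are above 500 CPM in each class.

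The inducible exchange factor and the inducible HSP90 had another pattern, with neurons high. Hsph1 in excitatory neurons stood at 275 and 190.1 CPM in PFC CTRL, 274, 217 and 244 CPM in PFC DTA, and 229 CPM (CTRL) and 227 CPM (DTA) in the MC. Inhibitory neurons gave 175 and 133 CPM in PFC CTRL, 95.4, 138 and 189 CPM in PFC DTA, and 152 CPM (CTRL) and 142 CPM (DTA) in the MC, below the excitatory value in each library, and endothelial cells gave 10.8 to 79.2 CPM. The means were 237 CPM in excitatory neurons, 147 CPM in inhibitory neurons, 51.4 CPM in endothelial cells and 41.1 CPM in microglia. Excitatory neurons were above each other class in all 7 libraries, and their mean was at least 1.61-fold that of any of them.

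Hsp90aa1, which folds kinases and receptors and is raised by stress, was highest in oligodendrocytes. There it stood at 1286 and 1419.96 CPM in PFC CTRL, 1776, 1448 and 1462 CPM in PFC DTA, and 1143 CPM (CTRL) and 1321 CPM (DTA) in the MC. Excitatory neurons followed with 991 to 1301 CPM and inhibitory neurons with 767 to 1219 CPM, and both overlapped each other. Endothelial cells, at 306 to 626 CPM, and astrocytes, with a mean of 331 CPM, held far less. Its constitutive counterpart Hsp90ab1 was highest in endothelial cells, where it stood at 2103 and 1808 CPM in PFC CTRL, 1693, 1493 and 1585 CPM in PFC DTA, and 1542 CPM (CTRL) and 1619.9 CPM (DTA) in the MC. The class means of Hsp90ab1 ran from 1692 CPM in endothelial cells through 1323 CPM in oligodendrocytes and 1200 CPM in excitatory neurons to 521 CPM in astrocytes.

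Hspa8, the resting HSP70 that also uncoats clathrin vesicles, was abundant in each class. In endothelial cells it stood at 2634 and 2387 CPM in PFC CTRL, 1481, 1638 and 2259 CPM in PFC DTA, and 1949 CPM (CTRL) and 1979 CPM (DTA) in the MC. Oligodendrocytes gave 1338 to 2061 CPM and overlapped the endothelial range. Excitatory neurons stood at 1045 and 896 CPM in PFC CTRL, 1417, 1179.8 and 1592 CPM in PFC DTA, and 939 CPM (CTRL) and 1303 CPM (DTA) in the MC, with PFC DTA replicates 1 and 3 highest. Inhibitory neurons stood at 956 and 913 CPM in PFC CTRL, 1625, 985 and 2029 CPM in PFC DTA, and 903 CPM (CTRL) and 1042 CPM (DTA) in the MC, with the same 2 libraries highest. Means were 2047 CPM in endothelial cells, 1648 CPM in oligodendrocytes, 1196 CPM in excitatory neurons, 1208 CPM in inhibitory neurons, and 834 CPM in astrocytes.

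Dnaja1, a farnesylated J-domain protein that works with Hspa8, separated the classes least. Its means over the 8 classes ran from 560 CPM in endothelial cells to 243 CPM in astrocytes, and endothelial cells were above 4 of the other 7 classes in all 7 libraries. In endothelial cells it stood at 829 and 617 CPM in PFC CTRL, 489, 419.5 and 650.2 CPM in PFC DTA, and 497 CPM (CTRL) and 418 CPM (DTA) in the MC, and in excitatory neurons at 413 and 385 CPM in PFC CTRL, 526, 359 and 459 CPM in PFC DTA, and 379 CPM (CTRL) and 382 CPM (DTA) in the MC.

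Hspa5, the chaperone of the endoplasmic reticulum, was, of the 8 classes, highest in microglia, the resident macrophages. In microglia it stood at 606 and 392 CPM in PFC CTRL, 655, 481 and 955 CPM in PFC DTA, and 471 CPM (CTRL) and 609 CPM (DTA) in the MC. PFC DTA replicate 3 was highest and PFC CTRL replicate 2 lowest, and the PFC genotypes overlapped. Endothelial cells gave 238 to 381 CPM and astrocytes a mean of 253 CPM, and microglia were above each of the other 7 classes in all 7 libraries, with a mean at least 1.95-fold theirs. Perivascular macrophages stood at 341 to 1105 CPM, with a mean of 691 CPM against 596 CPM in microglia. Oligodendrocytes, with a mean of 116 CPM, were lowest, although they were high for both cytosolic HSP90 genes.

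**Figure D2:**
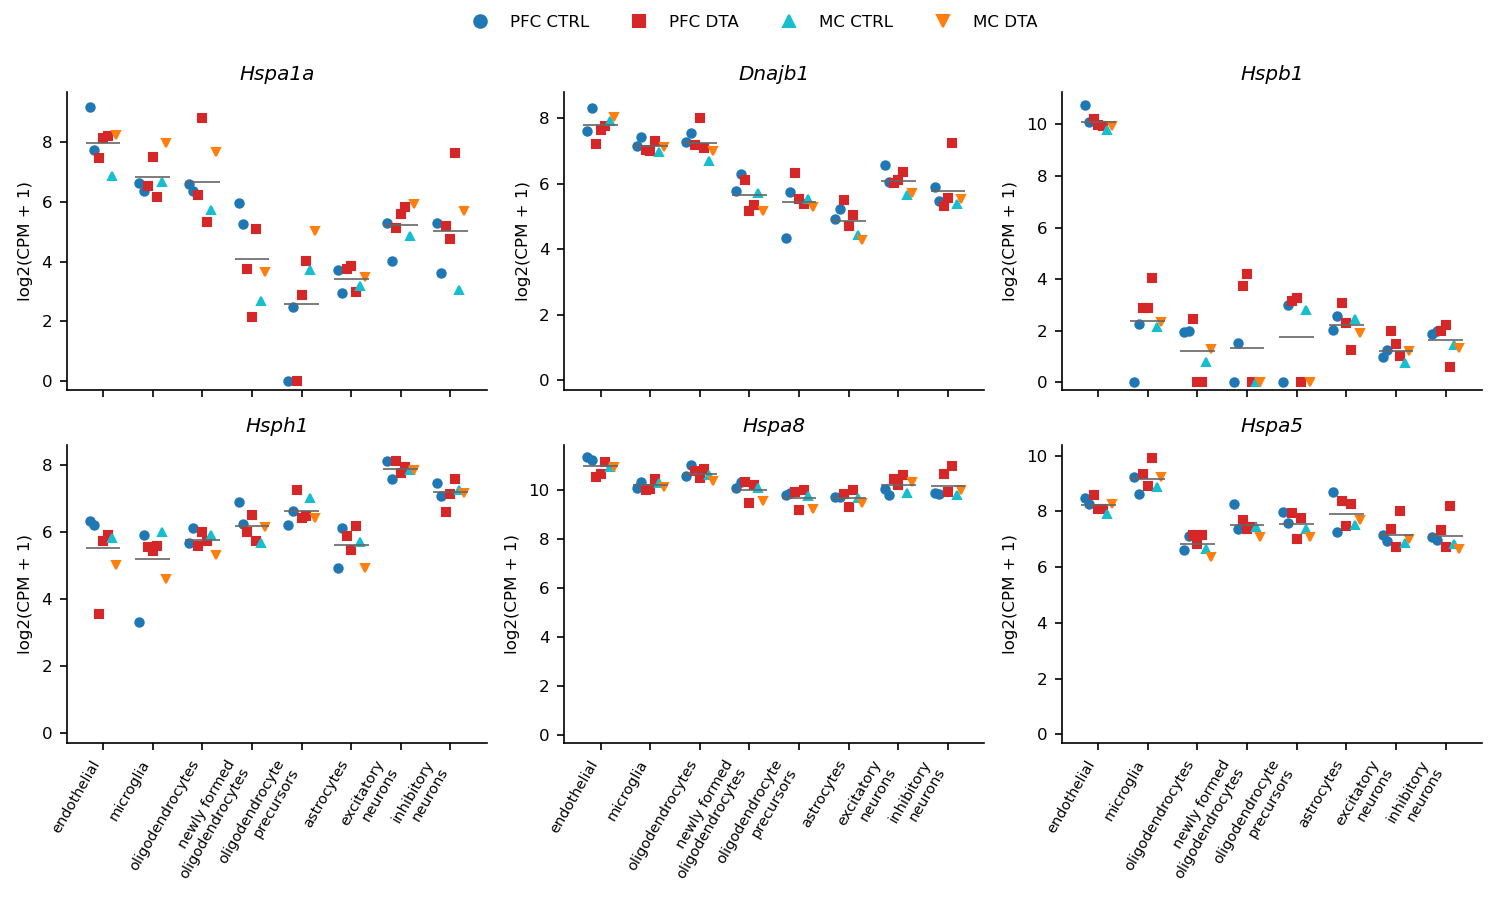
Level of 6 of the genes in each library, as log2(CPM + 1) against cell class; a symbol is a library, its colour and shape give area and genotype, and the short line is the mean of the 7 libraries. Hspb1 forms a single high class, Hspa1a spreads widely between libraries within a class (inhibitory neurons 7.31 to 196 CPM), and Hspa8 lies in a narrow band.

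Neighbouring classes in each gene's order of mean log2(CPM + 1) were compared over the 7 libraries by an exact two-sided sign-flip permutation test, with Benjamini-Hochberg adjustment over 70 neighbouring pairs. No pair passed the threshold of 0.05 (0 of 70, of which 21 had an unadjusted p under 0.05), and the smallest adjusted p was 0.073. The smallest p that 7 libraries allow is 0.0156, so the design limits this test. Among others, the same order held in all 7 libraries for endothelial cells over microglia (Hspa1a and Hspb1), excitatory over inhibitory neurons (Hspa1b and Hsph1), oligodendrocytes over excitatory neurons (Hsp90aa1 and Hspa8), microglia over excitatory neurons (Dnajb1) and microglia over endothelial cells (Hspa5). For Hspa1b this order lay near the floor. Excitatory and inhibitory neurons gave 0.533 and 0 CPM of Hspa1b in PFC DTA replicate 1, and 1.64 and 1.58 CPM in PFC DTA replicate 3. For Dnaja1 and Hsp90ab1 the neighbours with a constant order lay lower down, among them newly formed oligodendrocytes over oligodendrocyte precursors in both genes. For Hspa1a, microglia were above oligodendrocytes in 6 of 7 libraries, and PFC DTA replicate 2 had the reverse, at 181 and 449 CPM.

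Inducible and constitutive members were set against each other by summing each set's CPM, as a description without a test. The log2 ratio of inducible to constitutive was -0.98 ± 0.15 in endothelial cells, -0.92 ± 0.11 in excitatory neurons and -0.88 ± 0.25 in oligodendrocytes (SD, n = 7). It was lower in glia of other kinds, at -1.64 ± 0.22 in microglia and -1.94 ± 0.28 in astrocytes. In each tested class but endothelial cells, Hsp90aa1 made up most of the mean inducible sum. Without that gene the ratio stood at -1.37 in endothelial cells, -2.78 in microglia, -3.01 in excitatory neurons and -3.45 in inhibitory neurons. It stood at -3.29 in oligodendrocytes and -4.11 in astrocytes. Pericytes, at -0.50 ± 0.31 with Hsp90aa1 and -0.90 without, held the largest inducible share among these 9 groups of cells. Smooth muscle cells and perivascular macrophages were not among these groups, so pericytes are not ranked against them.

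The share of cells with at least 1 UMI of a gene was compared after each cell was thinned to 1000 UMIs, with shallower cells left out. For Hspa1a it was 10.9% to 33.1% of endothelial cells across libraries, with a median of 16.02% (1346 cells, 331 left out). In astrocytes, among the classes with the lowest shares, it was 0.299% to 1.70% (3246 cells, 952 left out). Free RNA in the droplets was not measured, so its part in any of these shares is not known. Median depths were 1269.5 to 3934.5 UMIs in endothelial cells and 997 to 2695 UMIs in astrocytes, and, unthinned, 15.5% to 52.5% of endothelial cells had an Hspa1a UMI. Excitatory neurons had 0.953% to 5.01% after thinning and 4.05% to 24.2% before, and MC DTA, the deepest library, had both upper values. Hspb1 was found in 58.0% to 79.4% of thinned endothelial cells and in 0% to 0.251% of excitatory neurons. Hspa8 was found in 70.9% to 91.6% of endothelial cells, and Hspa5 in 29.1% to 52.8% of microglia. After thinning, Hspb1 and Hspa8 were detected in most endothelial cells of each library and Hspa1a in a minority.

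A few cells carried much of the Hspa1a in some sums. In inhibitory neurons of PFC DTA replicate 3, 251 cells held 371 UMIs of Hspa1a, of which the top 5 cells held 32.6%, and a single cell held 52. Without those 5 cells the level was 138 CPM in place of 196 CPM, still above the 7.31 to 50.7 CPM of the other 6 libraries. The top 5 endothelial cells held 13.4% of the Hspa1a UMIs in MC DTA and 52.1% in PFC DTA replicate 3, where the level without them was 149 CPM. In oligodendrocytes of PFC DTA replicate 2 they held 45.3%, and the level without them was 259 CPM.

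Whether partner chaperones were found in the same cells as the stress HSP70 was asked in cells thinned to 1000 UMIs, with the mean of a partner in cells with an Hspa1a or Hspa1b UMI divided by that in the other cells of the class. Libraries with at least 20 such cells entered, which left 6 libraries in endothelial cells and in excitatory neurons. In excitatory neurons the log2 ratio was 0.56 for Hspa8 and 0.50 for Hsp90aa1, above 0 in 6 of 6 libraries, and -0.57 for Hsph1, below 0 in 6 of 6. In endothelial cells Hspb1 gave 0.41, above 0 in 5 of 6 libraries, and Hsp90ab1 gave 0.12, above 0 in 6 of 6. In the exact two-sided sign-flip permutation test, 0 of 12 pairs of partner and class passed the threshold after Benjamini-Hochberg adjustment. Of these pairs, 4 had an unadjusted p under 0.05. The smallest adjusted p in this test was 0.0938 for a raw p of 0.0312, the smallest that 6 libraries allow. Thinned to 2000 UMIs instead, the Hsph1 ratio in excitatory neurons was -0.003, while Hspa8 gave 0.57 and Hsp90aa1 0.49. Dnajb1, not among the partners at 1000 UMIs, gave 0.86 there, above 0 in 5 of 5 libraries. Hsp90ab1 gave 0.69, above 0 in 7 of 7, and Hspa5 gave -0.35, above 0 in 3 of 7. Within clusters of excitatory neurons, a comparison added after the data were seen, Hspa8 and Hsp90aa1 each gave 0.35, above 0 in 5 of 6 and in 6 of 6 libraries.

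Over the 56 sums of library and class, the genes with levels most like a member's were found by Pearson's r of log2(CPM + 1), a description over points that share libraries and classes. For Hspb1 they were the endothelial genes Robo4, Pltp and Cdh5, with r between 0.933 and 0.938. For Hspa8 they were Bcl2l1 (r = 0.835), Cdc37 (r = 0.818), a co-chaperone that hands kinases to HSP90, and Cct7 (r = 0.744), a chaperonin subunit. Hspa5 gave Slc25a5, Ccnl1 and Ddx5, with r from 0.844 to 0.850. Hspa1a gave BC028528 (r = 0.747), Map3k11 (r = 0.731) and Rps6ka1 (r = 0.729). Once each class's mean was subtracted, the nearest genes to Hspa1a were Ulk1 (r = 0.565), the immediate early gene Fosb (r = 0.564) and Bloc1s1 (r = 0.555).

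Genotype was compared in the PFC, between 3 DTA and 2 CTRL libraries, with edgeR's quasi-likelihood test over all genes in each class. The test called 0 of 68987 gene-by-class pairs (0%) and 0 of the 66 pairs in which a member passed the filter on low counts, out of 80. At an unadjusted p under 0.05 there were 1730 of all pairs (2.51%) and 4 of the members', and DESeq2 called 0. The member estimates differed in sign between classes: in endothelial cells 0 of 9 were above 0, with a median log2 fold change of -0.48, whereas 47.8% of all endothelial genes were, with a median of -0.02. In excitatory neurons 9 of 10 were above 0 (median 0.36) and in inhibitory neurons 7 of 8 (median 0.53), against 51.1% and 49.6% of all genes. Over all classes 22 of 34 inducible, 14 of 24 constitutive and 5 of 8 Hspa5 estimates were above 0. All of these estimates come from the same PFC libraries, so their signs are not separate observations.

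In endothelial cells Hsp90aa1 had the smallest p. It stood at 601 and 626 CPM in PFC CTRL and 306, 527 and 443 CPM in PFC DTA, with the 3 DTA libraries below both controls. The log2 fold change was -0.51 (SE 0.269), with an adjusted p of 0.9998 in edgeR with Benjamini-Hochberg adjustment. Hspa8 stood at 2634 and 2387 CPM in PFC CTRL and 1481, 1638 and 2259 CPM in PFC DTA, also without overlap, with a log2 fold change of -0.49. How often other genes separate the genotypes without overlap was not counted, so this has no background. Hspa1a had a log2 fold change of -0.66 and, of the 3 genes, was the one whose groups overlapped: PFC CTRL replicate 2 lay below PFC DTA replicates 2 and 3. The endothelial estimates ranged from -0.78 to -0.10, and Hspa1b was not tested there. Red blood cell genes in the endothelial sums were also unequal, at 12970.2 CPM for 5 genes in PFC CTRL replicate 1 and 1821 to 6259 CPM in the other 4 PFC libraries, and their part in these values was not tested.

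In neurons the constitutive HSP70 had the smallest p. Hspa8 in inhibitory neurons had a log2 fold change of 0.77 (SE 0.262, adjusted p = 0.9997, edgeR), and in excitatory neurons one of 0.57 (SE 0.216, adjusted p = 0.99998, edgeR). In both neuron classes, as listed above, all 3 DTA libraries were above both controls. The share of all genes that separate the genotypes in this way was not counted, so this separation has no background. Without PFC DTA replicate 3 the estimates were 0.52 and 0.47. Hspa1a in excitatory neurons stood at 38.3 and 15.1 CPM in PFC CTRL and 34.1, 47.0 and 55.4 CPM in PFC DTA, overlapping between genotypes, with a log2 fold change of 0.84 (SE 0.430, adjusted p = 0.99998, edgeR). Without PFC CTRL replicate 1 it was 1.70 (SE 0.283), past the threshold with an adjusted p of 0.00798 in edgeR with Benjamini-Hochberg adjustment, so a single control library decided that call. In inhibitory neurons Hspa1a stood at 37.9 and 11.4 CPM in PFC CTRL and 35.8, 26.4 and 196 CPM in PFC DTA, and its log2 fold change of 2.11 had an SE of 1.41 (adjusted p = 0.9997, edgeR), with PFC DTA replicate 3 apart from the rest. Hspa1b in excitatory neurons, at 0.964 and 0.707 CPM in PFC CTRL and 0.533, 3.19 and 1.64 CPM in PFC DTA, had a log2 fold change of 1.35 (SE 0.599, adjusted p = 0.99998, edgeR).

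PFC DTA replicate 3 stood apart in inhibitory neurons beyond the chaperones. In inhibitory neurons, the summed level of 18 immediate early genes that respond to tissue dissociation, Fos and Jun among them, was 4136 CPM in PFC DTA replicate 3 and 959 to 1538 CPM in the other 4 PFC libraries. All 16 tested genes of that list had a positive genotype estimate in inhibitory neurons (median log2 fold change 0.91), and 4 of 18 had one in endothelial cells (median -0.20). The summed endothelial markers in inhibitory neurons stood at 11.6 CPM in that library and at 14.2 to 101.4 CPM in the other 4. The part of endothelial RNA and that of the immediate early genes in the chaperone values of inhibitory neurons were not tested.

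**Figure D3:**
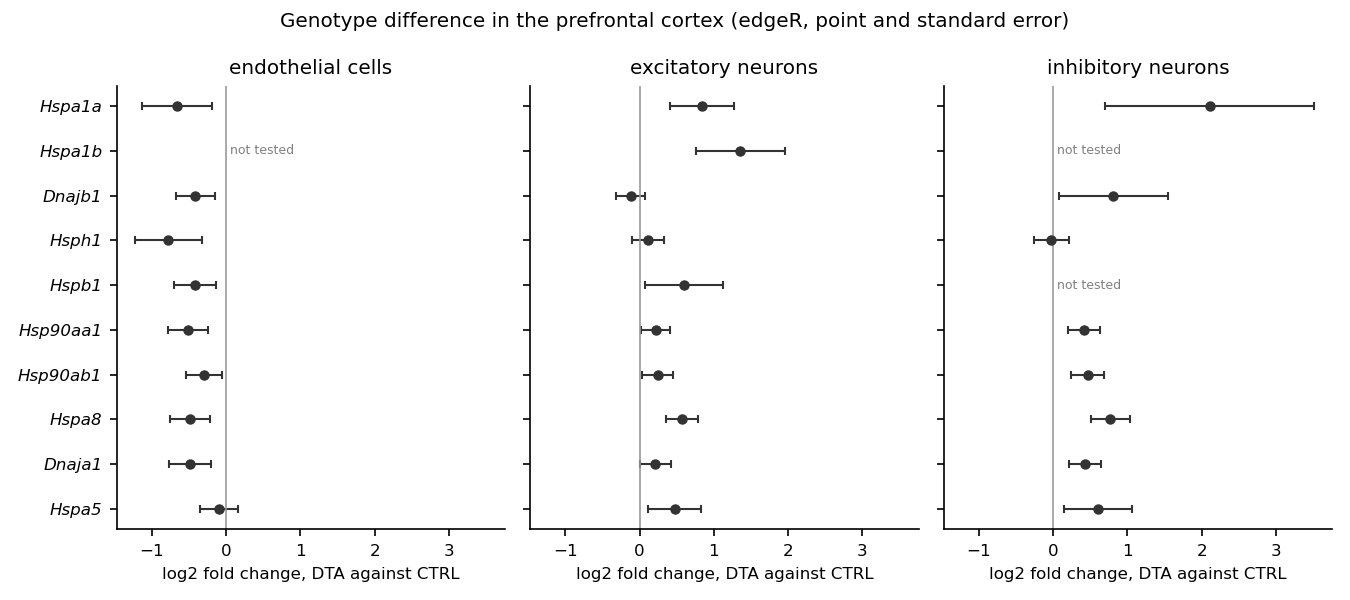
Log2 fold change of DTA against CTRL in the PFC for each member (vertical axis) in 3 classes, as the edgeR estimate with a bar of 1 standard error either way. Endothelial estimates lie between -0.78 and -0.10, and 9 of 10 excitatory and 7 of 8 inhibitory estimates lie above 0.

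The difference between classes was then tested itself, as the genotype effect in endothelial cells minus that in a neuron class, in edgeR with library as a term, a comparison added after the data were seen. All 10 members were below 0 against excitatory and against inhibitory neurons, with 5 of the 10 at an unadjusted p under 0.05 in each. The estimates from the same sums had already differed in sign between these classes. The signs here were therefore largely set in advance and add no support. Members of a class share the same libraries, so they are not separate observations. With a library left out, 9 to 10 were below 0 against excitatory neurons and 8 to 10 against inhibitory neurons. How many of all genes lay below 0 was not counted, so these counts have no background. The test called 0 of 12525 genes (0%) and 0 of 10574 genes (0%), with 191 and 247 at an unadjusted p under 0.05, so no member passed the threshold after adjustment. Against excitatory neurons the difference was -1.42 for Hspa1a (SE 0.296) and -1.03 for Hspa8 (SE 0.233), each with an adjusted p of 1 in edgeR. Against inhibitory neurons it was -1.12 for Hspa8 (SE 0.251) and -2.01 for Hspa1a (SE 0.795), again with an adjusted p of 1 in edgeR, and the latter was -1.002 without PFC DTA replicate 3. Hsp90aa1 (-0.73 and -0.89), Hsp90ab1 (-0.51 and -0.68) and Dnaja1 (-0.64 and -0.80) had the same sign. The 5 PFC libraries enter each of these comparisons, so the values against the 2 neuron classes share their endothelial sums.

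In the other 5 classes of the PFC the median over the tested members lay between -0.25 and 0.20. Astrocytes had 7 of 8 members above 0 (median 0.18), with the smallest p for Hsp90ab1 at 0.23 (SE 0.241, adjusted p = 0.9997, edgeR). Microglia had 5 of 8, with Hspa5 at 0.57 (SE 0.382, adjusted p = 0.9996, edgeR). Oligodendrocytes had 6 of 8, with Hsp90aa1 at 0.26 (SE 0.196, adjusted p = 0.9997, edgeR) and Hspa1a at 1.08, the latter with PFC DTA replicate 2 far above the other libraries. Oligodendrocyte precursors had 5 of 7, with Hsp90ab1 at 0.34 (SE 0.263, adjusted p = 0.9990, edgeR). Newly formed oligodendrocytes had 2 of 8, and the smallest p was that of Hspa1a at -1.31 (SE 0.662, adjusted p = 0.9995, edgeR). None of these members passed the threshold.

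The areas were compared over all 7 libraries with genotype as a term, and most member estimates were lower in the MC. In edgeR 1014 of 73471 gene-by-class pairs (1.38%) were called, 758 of them in excitatory and 240 in inhibitory neurons, and 0 of the 67 tested pairs of members were. At an unadjusted p under 0.05 there were 7 of the 67, or 5942 of all pairs (8.09%), and DESeq2 also called 0 members. Of the 67 estimates 58 were below 0, with a median log2 difference of -0.22, against class medians of -0.02 to 0.0008 for all genes. By class, 47.1% to 50.1% of all genes were above 0. These estimates share the same MC libraries, so their signs, here and in the sets below, are not separate observations. Among constitutive members 23 of 24 were below 0, among inducible members 27 of 35, and for Hspa5 8 of 8. The MC libraries were both below all 5 PFC libraries in 9 of 80 pairs of member and class and both above in 0. How often other genes separate the areas in this way was not counted, so this count, and those by gene below, have no background.

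Dnajb1, the J-domain partner of the stress HSP70, had the smallest p in 2 classes and separated the areas in 3. In excitatory neurons it stood at 94.2 and 65.1 CPM in PFC CTRL, 63.5, 68.7 and 81.3 CPM in PFC DTA, and 49.4 CPM (CTRL) and 52.0 CPM (DTA) in the MC. Both MC values were below each PFC value, by a log2 difference of -0.56 (SE 0.175, adjusted p = 0.0973 in edgeR with Benjamini-Hochberg adjustment). The class was also made up of different clusters in the areas: the cluster numbered 10 held 1.15% and 2.45% of it in the MC and 9.33% to 17.07% in the PFC, and the part of this in the difference was not tested. Without PFC CTRL replicate 2 the difference was -0.66 and passed the threshold, with an adjusted p of 0.0435 in edgeR. In astrocytes Dnajb1 stood at 29.1 and 36.9 CPM in PFC CTRL, 44.8, 25.0 and 31.8 CPM in PFC DTA, and 20.6 CPM (CTRL) and 18.5 CPM (DTA) in the MC, again without overlap, and differed by -0.72 (SE 0.291, adjusted p = 0.683 in edgeR). In oligodendrocytes it stood at 154 and 187 CPM in PFC CTRL, 143, 255 and 134 CPM in PFC DTA, and 103 CPM (CTRL) and 127 CPM (DTA) in the MC, without overlap, and differed by -0.54 (adjusted p = 0.9999, edgeR). Hsp90ab1 also separated the areas in 3 classes, microglia and both kinds of oligodendrocyte, and Dnaja1 in oligodendrocytes and inhibitory neurons.

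Immediate early genes stood lower in both MC libraries in astrocytes and excitatory neurons. Their summed level in astrocytes was 4438 and 3204 CPM in PFC CTRL, 6267, 4484 and 2944 CPM in PFC DTA, and 1508 CPM (CTRL) and 1843 CPM (DTA) in the MC, and 0 of 18 estimates were above 0 (median -1.31). In excitatory neurons it was 2754 and 1394 CPM in PFC CTRL, 1950.4, 1727 and 2843 CPM in PFC DTA, and 1022 CPM (CTRL) and 1269.6 CPM (DTA) in the MC, with 3 of 18 above 0 (median -0.88). In oligodendrocytes the areas overlapped and the list's median was -0.37, and it was 0.02 in endothelial cells, where it summed to 20673 and 21960.3 CPM in PFC CTRL, 16146, 17085 and 23491 CPM in PFC DTA, and 19315 CPM (CTRL) and 20919 CPM (DTA) in the MC. Endothelial Dnajb1 did not separate the areas. The part of these genes in the Dnajb1 differences was not tested.

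**Figure D4:**
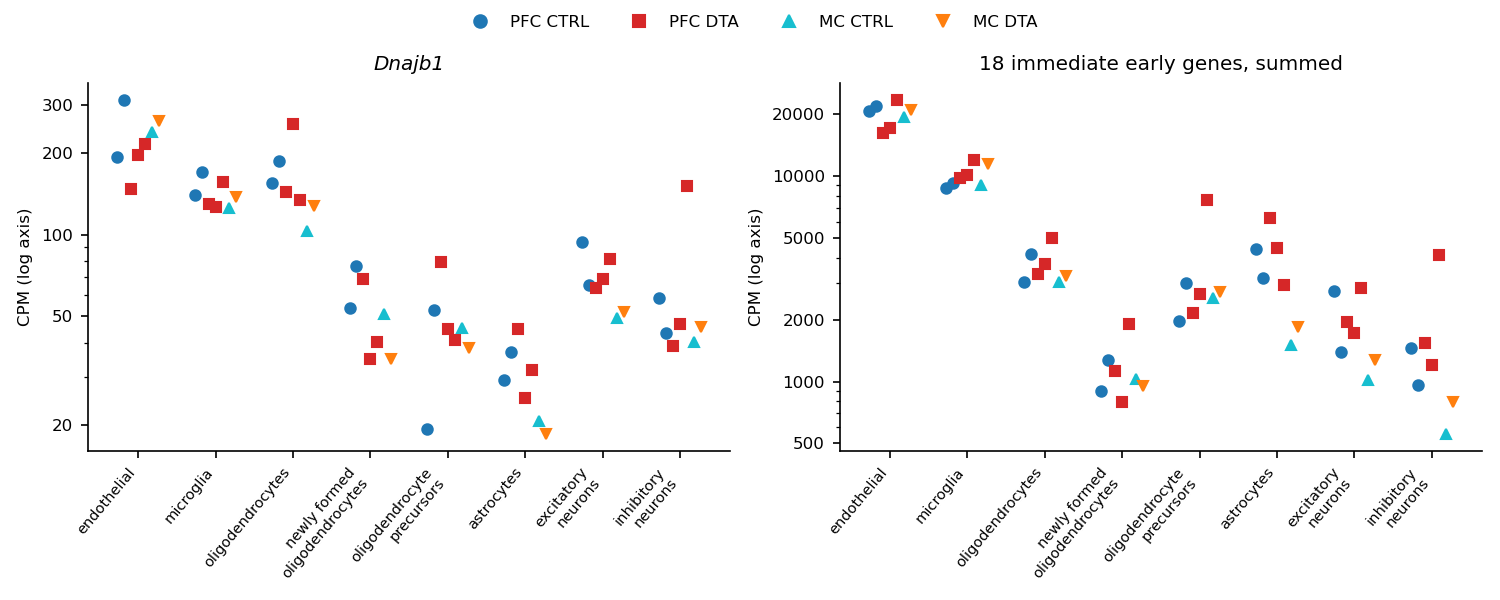
Level in each library (CPM, log axis) of Dnajb1 on the left and of the 18 immediate early genes summed on the right, by class; colour and shape give area and genotype. In excitatory neurons both MC libraries (49.4 and 52.0 CPM of Dnajb1) lie below the 5 PFC libraries (63.5 to 94.2 CPM), and the summed genes are lower there as well.

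The remaining members with the smallest p of their class were lower in the MC with 1 exception. Hspa5 differed by -0.43 in oligodendrocytes (SE 0.181, adjusted p = 0.9999, edgeR) and by -0.40 in oligodendrocyte precursors (SE 0.252, adjusted p = 0.9969, edgeR). Dnaja1 differed by -0.41 in endothelial cells (SE 0.248, adjusted p = 0.9999, edgeR) and by -0.35 in inhibitory neurons (SE 0.181, adjusted p = 0.385, edgeR). Hspa1a differed by -2.04 in newly formed oligodendrocytes (SE 0.855, adjusted p = 0.9932, edgeR), where its level was 3.47 to 60.7 CPM, and by 0.68 in microglia (SE 0.361, adjusted p = 0.9999, edgeR). Hspa1b in excitatory neurons was higher in the estimate, by 1.18 (SE 0.429, adjusted p = 0.159 in edgeR), at 2.09 and 4.24 CPM in the MC against 0.533 to 3.19 CPM in the PFC, and without PFC DTA replicate 2 it passed with an adjusted p of 0.0495 in edgeR.

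The difference of the genotype effect between areas was tested as an interaction over the 7 libraries, with the lone MC libraries assumed to vary like those of the PFC. In edgeR it called 0 of 79378 gene-by-class pairs (0%), with 1089 at an unadjusted p under 0.05 (1.37%), and 0 of 70 pairs of members, with 1 at such a p. In endothelial cells 10 of 10 members had a larger genotype effect in the MC than in the PFC, with a median of 0.59. In oligodendrocyte precursors 0 of 8 did, with a median of -0.52. Of all genes, 51.1% and 49.2% did in these classes. The members of a class share the same lone MC libraries, so their signs are not separate observations. Endothelial Hspa1a gave 2.12 (SE 0.886, adjusted p = 0.9999 in edgeR with Benjamini-Hochberg adjustment), with an estimate below 0 in the PFC and a ratio above 0 in the MC.

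In the MC there was 1 library for each genotype, so ratios carry exact intervals at 95% that cover counting error only and have no replicate check. MC DTA was also the deep library of the pair, and genotype and depth cannot be told apart there. Of 68 ratios 37 were above 0 on the log2 scale, 17 with the whole interval above 0, and 19 had the whole interval below 0, while 12 of the 80 pairs had too few counts for a ratio. Hspa1a was higher in MC DTA in each class with a ratio. The log2 ratio was 2.80 (2.13 to 3.53) in inhibitory neurons from 21 and 133 counts, 1.97 (1.67 to 2.27) in oligodendrocytes, 1.38 (1.002 to 1.767) in endothelial cells from 71 and 328 counts, 1.30 (0.87 to 1.75) in microglia and 1.10 (0.92 to 1.27) in excitatory neurons from 415 and 733 counts. In astrocytes, at 0.33, and oligodendrocyte precursors, at 1.37, the interval took in 0. Microglia of the 2 libraries lay mostly in different clusters, 96.82% of MC CTRL in the cluster numbered 8 and 84.21% of MC DTA in that numbered 17, which touches each microglial ratio given here for Hspa1a, Hspa8 and Hsph1, and its part was not tested.

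Constitutive members were split by class in the MC. The log2 ratio of Hspa8 was 0.47 in excitatory neurons, 0.21 in inhibitory neurons, 0.02 in endothelial cells (-0.08 to 0.13) and -0.52 to -0.19 in microglia and the astrocyte and oligodendrocyte classes. TMM scaling in place of class totals moved the ratios of a class by at most 0.19, and 2 of the values named here then lay above 0, Hspa8 in microglia at 0.002 and Hsph1 in excitatory neurons at 0.02. Hsp90ab1 was higher in MC DTA in both neuron classes, at 0.44 in inhibitory and 0.29 in excitatory cells. Hsph1, an inducible member, lay below 0 where Hspa1a lay above it: -1.42 in microglia (-2.34 to -0.56), -0.83 in endothelial cells and -0.01 in excitatory neurons. Across all 7 libraries the deep libraries had the higher median of Hspa1a in 6 of 8 classes, of Dnajb1 in 3, of Hspa8 and Hsph1 in 1 and of Dnaja1 in 0.

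**Figure D5:**
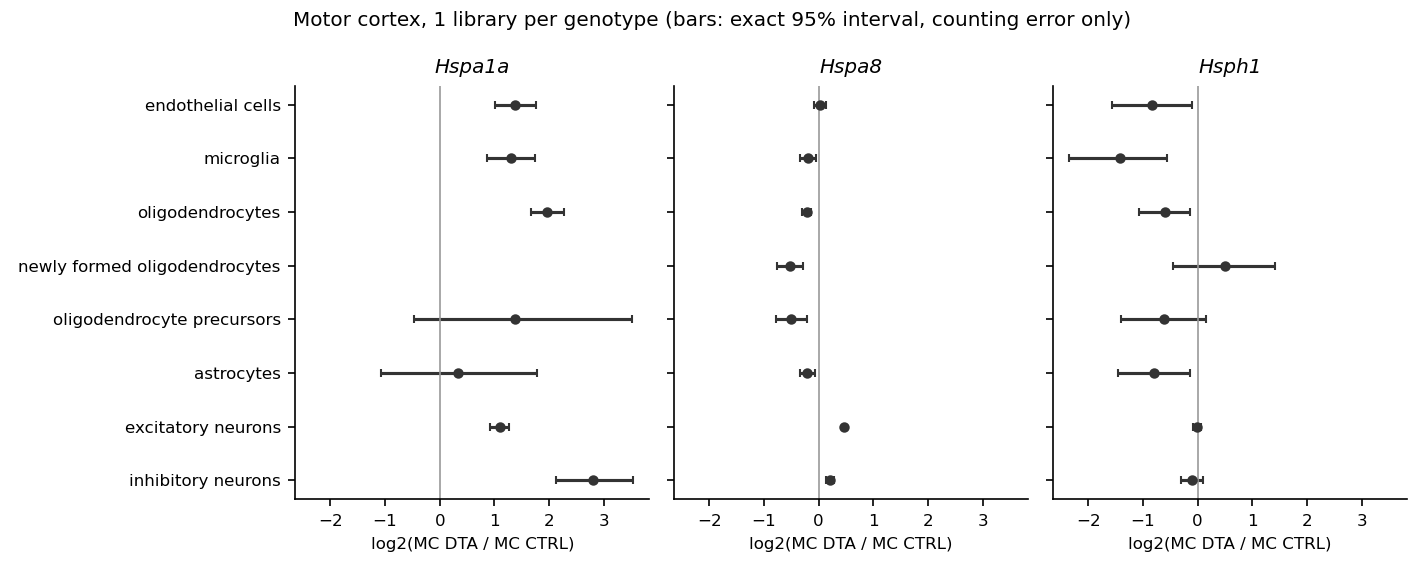
Log2 ratio of MC DTA to MC CTRL for Hspa1a, Hspa8 and Hsph1 in each class, 1 library per genotype; points are ratios of CPM and bars exact 95% intervals for counting error only. Hspa1a is at 2.80 in inhibitory neurons and 1.10 in excitatory neurons, Hspa8 at 0.02 in endothelial cells, and Hsph1 at -1.42 in microglia.

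Other genes of the chaperone system were read from lists of pathway genes in the same tests, as counts beside those of all genes. In the PFC no list gene was called in any class, and 51.1% of all genes were above 0 in excitatory neurons, 49.6% in inhibitory neurons and 47.8% in endothelial cells. All 9 tested chaperonin genes, subunits of the barrel-shaped folding machines, had positive genotype estimates in excitatory neurons (median 0.23) and in inhibitory neurons (median 0.33), and 1 of 9 had one in endothelial cells (median -0.09). Their smallest p in inhibitory neurons was that of Cct5, at a log2 fold change of 0.47 (SE 0.205, adjusted p = 0.9997, edgeR). Of the heat shock factors and co-chaperones, 3 of 19 were above 0 in endothelial cells (median -0.18), with Cacybp at -0.70 (SE 0.255, adjusted p = 0.9998, edgeR), against 11 of 20 in excitatory and 12 of 20 in inhibitory neurons. Unfolded protein response genes, the partners of Hspa5, were above 0 in 11 of 18 in inhibitory neurons, where Pdia4 had a log2 fold change of 0.97 (SE 0.280, adjusted p = 0.9997, edgeR), in 12 of 18 in excitatory neurons and in 10 of 16 in endothelial cells. Of the other HSP70 and HSP110 genes 3 of 8 were above 0 in excitatory neurons, with the smallest p for Hspa2 at 0.68 (SE 0.213, adjusted p = 0.99998, edgeR).

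Between areas 4 genes of the lists were called in edgeR with Benjamini-Hochberg adjustment. Hspb3, a small heat shock protein, stood at 3.96 and 3.21 CPM in PFC CTRL, 5.60, 4.53 and 5.30 CPM in PFC DTA, and 24.9 CPM (CTRL) and 26.1 CPM (DTA) in the MC in excitatory neurons and rose in the MC by 2.59 on the log2 scale (SE 0.179, adjusted p = 4.55e-05). Both MC libraries were above all 5 of the PFC, whereas Hspb1 lay at 0.674 to 2.93 CPM in the same cells. Klf4 in excitatory neurons, at 9.21 and 7.40 CPM in PFC CTRL, 20.8, 11.0 and 25.9 CPM in PFC DTA, and 3.10 CPM (CTRL) and 3.10 CPM (DTA) in the MC, fell by 2.01 (SE 0.434, adjusted p = 0.0333). Junb in astrocytes, at 557 and 429 CPM in PFC CTRL, 674, 479 and 495 CPM in PFC DTA, and 139 CPM (CTRL) and 226 CPM (DTA) in the MC, fell by 1.51 (SE 0.245, adjusted p = 0.0399), and Klf6 in inhibitory neurons fell by 0.89 (SE 0.211, adjusted p = 0.0318). The latter 3 are immediate early genes. Chaperonins were lower in the MC in the estimates, with 0 of 9 above 0 in excitatory neurons (median -0.22), 0 of 9 in inhibitory neurons (median -0.24) and 1 of 9 in astrocytes (median -0.31), against 48.8%, 50.1% and 47.1% of all genes, and none was called.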

How the data were processed

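Cells of the prefrontal and motor cortex were dissociated and made into 10x Genomics 3' V2 libraries, per the labels' protocols. The submitters' processing notes name Cell Ranger 3.0.2, Seurat and mm10 without their roles. UMI counts per gene and cell make up the deposited tables; they were checked to be whole numbers, with at least 501 genes in each cell, and no further filter on cells was applied. Doublets were called with Scrublet in scanpy 1.11.5 and removed; where its threshold called 0 cells (PFC DTA replicate 3), the top 0.8% per 1000 cells were taken.

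All libraries were clustered together: counts scaled to 10000 per cell and log-transformed, 2000 variable genes without the members and the pathway genes, 30 principal components, 20 neighbours, and leidenalg 0.10.2 at a resolution of 1.0, which gave 33 clusters. A name needed 3 markers with at least 20 CPM and at least 2-fold the level in the clusters whose best matching class was another. A cluster stayed unnamed where the relative level of a second class was over 0.45, a value set after the clusters were seen. The 2 oligodendrocyte stages were exempt from this rule as a pair. It also stayed unnamed where over 50% of its cells were doublet calls, or where its leading genes held more markers of another class than of its own. The last reason was a low UMI count without a marker of its class among the leading genes. Clusters left without a name held 37.9% of the cells in PFC DTA replicate 3, 5.71% and 3.25% in the other PFC DTA libraries, 1.83% and 4.09% in those of PFC CTRL, and 3.55% (CTRL) and 4.60% (DTA) in the MC.

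Counts were summed per library and class, kept by filterByExpr at a minimum of 10, and tested after TMM scaling by the robust quasi-likelihood test of edgeR 4.0.16, with Benjamini-Hochberg adjustment over all genes of a class at 0.05. An SE was taken as the size of the log2 fold change over the root of its F statistic. DESeq2 1.42.0 was a second tool. Class order and same-cell ratios were tested by exact sign flips over libraries, on log2(CPM + 1). The tests were checked on simulated data. Class sums held 278155 to 1093290 UMIs in endothelial cells and 3750602 to 21621224 in excitatory neurons, which limits low members; intervals cover counting error only.

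The members, lists and tests were chosen with earlier results of these data known. All 10 members are named; of each class and comparison the member with the smallest p, and any past the threshold, is given in full, others by counts and range or where their values are needed. Of a list, called genes or the gene with the smallest p are named, and like genes are the 3 with the highest r at a mean of 20 CPM or more; predicted genes are not named. Alternatives were RLE size factors, no filter on low counts, DESeq2, doublets kept, a resolution of 2.0, a term for depth, Hspa1a and Hspa1b summed, the replicate number as a block, thinning to 2000 UMIs and each library left out. Added after the data were seen were same-cell ratios within clusters, the endothelial-minus-neuron comparison and the count of classes below the highest one.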

Additional observations from a re-analysis of the deposited data

Results flagged for a closer look

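The low-count cluster without a name entered none of the comparisons above. Haemoglobin genes lead it against all other cells and excitatory neuron genes such as Neurod6 lead it against other classes, and its cells have a median of 754 UMIs. Clustered more finely (resolution 2.0), a cluster of 2396 cells led by the same excitatory genes was named excitatory neurons, and that class in PFC DTA replicate 3 went from 1711 to 3483 cells. In 2 PFC DTA libraries, some members stood higher in it than in both PFC control libraries, by exact intervals at 95% for counting error that did not overlap. Only DTA libraries above the controls were searched for, and the reverse was not. In PFC CTRL replicate 1 this cluster held 13 cells with 22304 UMIs, so its values rest on few counts. In PFC DTA replicate 3, which holds most of these cells, Hspa8 was at 3411 CPM against 717 and 1569.5 CPM in PFC CTRL, and Dnaja1 at 898 CPM against 448 and 506 CPM. Hsph1 was at 238 CPM there, against 0 and 153 CPM, and Hsp90ab1 at 1414 CPM against 807 and 1124 CPM. Hsp90ab1 was also higher in PFC DTA replicate 1, at 1623 CPM. These were differences between single libraries and were not tested over replicates.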

How the results depend on the processing

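Direction was followed for 20 fold changes of members, those with the smallest p of their class and comparison and some others. Of 265 values under alternatives over these 20 results, 262 kept their direction and side of the threshold, 3 passed it and 0 reversed. Other named fold changes were not followed in this way, among them those of Hspa1a in endothelial cells and oligodendrocytes of the PFC. The count of all genes called in the PFC, 0, became 75 without the filter on low counts, 2 with a depth term and 1 to 247 with a library left out (247 without PFC CTRL replicate 1, 129 without PFC CTRL replicate 2), and the count of pairs of member and class called became 0 to 1. With the replicate number as a block it was 54, of which 0 were members; the numbers are shared by only 2 pairs, whose deviations correlated from -0.21 to 0.34 by class, and serve as names only, so no pairing was read from them. Between areas, 1014 genes became 1527 without the filter and 111 to 1211 with a library left out (126 without MC CTRL, 111 without MC DTA). The count of pairs of member and class called became 0 to 1, and the 9 such pairs higher in the MC became 8 to 18 (10 to 18 with a library left out). In endothelial cells minus excitatory neurons, 0 genes became 0 to 27, and minus inhibitory neurons 0 to 24, with 0 members called. The cause was not tested in any of these. Each left-out MC library leaves 1 sample, assumed to vary like the PFC. Depth limits Hspa1b and, outside the vessel wall, Hspb1 to low counts.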

Other observations

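Cryab, a small heat shock gene that is no member, stood high in classes where Hspb1 stood low. In oligodendrocytes it stood at 5475 and 4669 CPM in PFC CTRL, 5462, 5224 and 4945 CPM in PFC DTA, and 4728 CPM (CTRL) and 4533 CPM (DTA) in the MC. Newly formed oligodendrocytes gave 965 to 1269 CPM and astrocytes 225 to 338 CPM, and endothelial cells gave 6.99 to 66.8 CPM, so each of the 3 glial classes was above the endothelium in all 7 libraries. Hspb1 lay at 0 to 4.48 CPM in oligodendrocytes.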
